A study of Mus musculus with 8 samples.

Results

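The genes described here are 42 genes of glucose use and of the response to low oxygen, taken by symbol from the 25413 genes of the deposited count table. They comprise 19 glycolytic enzymes, 4 transporters, 4 regulatory kinases, 3 glycogen enzymes, and 12 other targets and regulators of the transcription factor HIF1. All 42 symbols were present, and 40 passed the filter on low counts. Aldoc, a brain-type aldolase, and Slc2a3, a glucose transporter typical of neurons, did not pass it. The study profiled poly(A) RNA of 3D cultures (spheroids, compact balls of cells) of a pair of mouse lines labelled as mammary epithelial. The design crosses line with exposure to PM2.5, the fine fraction of airborne particulate matter, with 2 libraries in each of 4 groups. The groups were EpH4-AS with PM2.5, EpH4-AS untreated, EpH4 with PM2.5, and EpH4 untreated. EpH4 carries the label WT, and EpH4-AS is labelled AS-transformed, a malignantly transformed form, with no transforming agent or allele named. The labels used here give no dose, duration or source of the particles and name 1 batch for all libraries. Nothing in them says that the replicates of a group were grown separately. The p values below therefore measure the spread between these libraries only, which may be technical.

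Glycolysis splits glucose into pyruvate, which is either reduced to lactate or enters the mitochondrion through pyruvate dehydrogenase. HIF1 is a pair of subunits whose alpha subunit, encoded by Hif1a, is destroyed in oxygenated cells after prolyl hydroxylases of the Egln family mark it. When oxygen is low it accumulates, binds short DNA elements with a core of CGTG, and raises the genes of glucose uptake, of nearly every glycolytic step, of lactate formation, and of angiogenesis and mitophagy, including the hydroxylases themselves.

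Total counts were between 15393256 and 27765982 per library, lower in the 4 EpH4-AS libraries than in the 4 EpH4 libraries. The lines also stood apart in the make-up of their reads. Reads outside exons made up 3.39% to 3.59% of gene reads in EpH4-AS libraries, against 11.3% to 12.5% in EpH4 libraries. Mitochondrially encoded genes took 0.219% to 0.302% of counts in EpH4-AS libraries, against 2.21% to 5.03% in EpH4 libraries. The labelled epithelial identity was not borne out by its markers. Of 15 epithelial genes only 1 reached a mean of 1 CPM (counts scaled to library size with the TMM method) in each group, Krt7 in EpH4-AS and Krt14 in EpH4. Of 10 fibroblast genes, 7 reached it in EpH4-AS with PM2.5, 7 in EpH4-AS untreated, 7 in EpH4 with PM2.5 and 6 in EpH4 untreated. The lines are therefore named by their labels, with no cell type read into them.

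Promoters were read for the members because their shared response elements are known by sequence. RefSeq (GRCm38.p6) entries were found for 38 of the 42 genes (not for Ndrg1, Aldoart1, Bnip3l and Slc2a3), with 56 promoters in all. The 250 bases before the start were searched on both strands for ACGTG and GCGTG, which differ in their first base, and overlapping matches were each counted. At least 1 match stood in 75% of the member promoters, against 38.6% of all 32851 promoters in the table. ACGTG stood in 42.9% of the member promoters, against 16.6% of all promoters, and GCGTG in 50% of the member promoters, against 28.2% of all promoters. The member promoters also held more CG pairs, with a median of 13 per promoter, against 6 over all promoters, and the part of CG content in the motif share was not tested. The promoters printed are those of the 4 members with the smallest adjusted p for PM2.5 in EpH4 among members with an entry, and that of Hk2, which changed in opposite directions in the lines. Each runs 5′ to 3′ on the strand of its gene and ends at the base before the start, with every match to either motif in capitals. The windows are chr6:5496279-5496528 (minus strand) for Pdk4, chr4:119108495-119108744 (plus strand) for Slc2a1, chr8:124949255-124949504 (minus strand) for Egln1, chr8:45999851-46000100 (minus strand) for Ankrd37 and chr6:82774455-82774704 (minus strand) for Hk2.
Pdk4: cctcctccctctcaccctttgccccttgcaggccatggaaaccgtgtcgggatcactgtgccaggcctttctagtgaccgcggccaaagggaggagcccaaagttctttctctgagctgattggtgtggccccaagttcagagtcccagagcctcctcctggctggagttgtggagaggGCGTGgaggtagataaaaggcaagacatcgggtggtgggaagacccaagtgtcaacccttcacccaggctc
Slc2a1: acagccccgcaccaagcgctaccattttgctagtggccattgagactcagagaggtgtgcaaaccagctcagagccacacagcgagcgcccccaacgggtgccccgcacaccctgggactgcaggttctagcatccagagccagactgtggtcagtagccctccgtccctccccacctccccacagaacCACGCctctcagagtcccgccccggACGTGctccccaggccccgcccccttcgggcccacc
Egln1: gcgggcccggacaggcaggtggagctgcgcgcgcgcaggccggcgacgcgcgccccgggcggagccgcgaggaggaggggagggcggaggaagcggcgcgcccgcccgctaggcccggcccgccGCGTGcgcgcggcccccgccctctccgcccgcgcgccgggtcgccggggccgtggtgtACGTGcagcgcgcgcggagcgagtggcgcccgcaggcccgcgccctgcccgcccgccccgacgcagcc
Ankrd37: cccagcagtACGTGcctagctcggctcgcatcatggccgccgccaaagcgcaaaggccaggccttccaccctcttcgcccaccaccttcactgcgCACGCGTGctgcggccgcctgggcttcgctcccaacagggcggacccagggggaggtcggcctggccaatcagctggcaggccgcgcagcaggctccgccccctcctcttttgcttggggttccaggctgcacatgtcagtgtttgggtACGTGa
Hk2: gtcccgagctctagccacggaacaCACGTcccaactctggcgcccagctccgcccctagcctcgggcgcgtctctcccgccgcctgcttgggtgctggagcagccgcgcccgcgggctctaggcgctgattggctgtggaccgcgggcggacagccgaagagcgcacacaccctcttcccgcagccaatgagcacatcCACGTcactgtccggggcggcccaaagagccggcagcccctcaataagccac
Pdk4 held 1 match, Slc2a1, Egln1 and Hk2 held 2 each, and Ankrd37 held 4. The letters alone say nothing of binding in these spheroids, and a match is neither a site nor a cause.

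The first comparison asks how PM2.5 changed these genes in the EpH4 line. Most of the named HIF1 targets and several glycolytic enzymes were lower in EpH4 spheroids with PM2.5 than in untreated ones, by less than 2-fold for all but Pdk4. At an adjusted p threshold of 0.05 in edgeR's quasi-likelihood test, 22 of the 40 members fell, 2 rose, and 16 did not pass. Over all 13716 genes tested, 12.9% fell and 14.3% rose. The median log2 fold change was -0.24 over the 40 members, against 0.00438 over all genes. In bulk spheroids, fewer cells of one kind and less RNA of a gene per cell cannot be told apart.

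Glucose entry was among the clearest falls. Slc2a1, at chr4:118965908-118995180 on GRCm39, encodes GLUT1, the glucose transporter of most proliferating cells. It stood at 662 and 600.0 CPM in EpH4 with PM2.5 and at 944 and 1018 CPM in EpH4 untreated. The groups did not overlap, and the log2 fold change was -0.64 (SE 0.06, adjusted p = 1.34e-05). Of the other transporters, the lactate carrier Slc16a1 had 128 and 127 CPM with PM2.5 and 136 and 134 CPM untreated, a log2 difference of -0.08 (SE 0.05, adjusted p = 0.225). The lactate exporter Slc16a3 and the glucose transporter Slc2a3 were under 1 CPM in every library.

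Of the 18 glycolytic enzymes tested, 9 fell and 1 rose. Hk2, the hexokinase that responds to growth signals and hypoxia (chr6:82702006-82751435), had 272 and 247 CPM in EpH4 with PM2.5 and 329.5 and 355 CPM in EpH4 untreated. Both exposed libraries were below both untreated ones, with a log2 fold change of -0.40 (SE 0.06, adjusted p = 2.22e-04). Pfkp, the platelet-type phosphofructokinase of the committing step (chr13:6629804-6698813), had 243 and 208 CPM with PM2.5 and 279.7 and 313 CPM untreated, and fell by 0.39 (SE 0.07, adjusted p = 0.00120) on the log2 scale. Gpi1, which turns glucose 6-phosphate into fructose 6-phosphate (chr7:33900755-33929761), had 1774 and 1656 CPM with PM2.5 and 1969.5 and 2209.9 CPM untreated, at a log2 fold change of -0.29 (SE 0.06, adjusted p = 0.00445). Neither pair of groups overlapped. Pfkl, the liver-type phosphofructokinase (chr10:77822781-77845917), had 344 and 318 CPM with PM2.5 and 399.8 and 421 CPM untreated and also fell, by 0.31 (SE 0.06, adjusted p = 0.00116) on the log2 scale.

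The third subunit gene of phosphofructokinase went the other way. Pfkm, the muscle type, had 52.0 and 48.6 CPM in EpH4 with PM2.5 and 46.3 and 41.1 CPM in EpH4 untreated, a log2 fold change of 0.20 (SE 0.07, adjusted p = 0.0378), and it was the 1 enzyme that rose. Its rise was not called in DESeq2 or in an edgeR fit of the 2 EpH4 groups alone. Ldha, which reduces pyruvate to lactate (chr7:46490899-46505051), had 2226 and 2059 CPM with PM2.5 and 2407 and 2464 CPM untreated. Its groups did not overlap, with a log2 fold change of -0.18 (SE 0.06, adjusted p = 0.0261), and it no longer passed without the second exposed library (adjusted p = 0.181) or the second untreated one (adjusted p = 0.0865), or without either untreated EpH4-AS library (adjusted p = 0.0651 and 0.0648). The other enzymes that fell were Hk1, the constitutive hexokinase (-0.34), the triose isomerase Tpi1 (-0.20), the mutase Pgam1 (-0.22) and the enolase Eno1 (-0.19), all as log2 fold changes. Pgk1, the first enzyme to yield ATP (chrX:105230706-105247305), had 2586 and 2396 CPM with PM2.5 and 2645 and 2718 CPM untreated. These values lay apart, but the log2 difference of -0.11 (SE 0.06, adjusted p = 0.233) did not pass. Neither did Gapdh, the dehydrogenase of the payoff phase, at -0.07, the main aldolase Aldoa at -0.14, the neuronal enolase Eno2 at 0.02 or the pyruvate kinase Pkm at -0.17. Ldhb, the heart-type lactate dehydrogenase, stood at 4.84 and 5.46 CPM with PM2.5 and 3.78 and 3.34 CPM untreated, a log2 difference of 0.53 (SE 0.19, adjusted p = 0.0548).

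Among the regulatory kinases, Pdk4 carried the largest fall of the members called in this comparison. It phosphorylates and shuts down pyruvate dehydrogenase, and lies at chr6:5483351-5496309. Its level was 9.56 and 9.20 CPM in EpH4 with PM2.5 and 21.7 and 24.4 CPM in EpH4 untreated. The exposed libraries were 2.45-fold lower on the fitted scale, at a log2 fold change of -1.29 (SE 0.10, adjusted p = 1.74e-06), and Pdk4 was the 1 member past 2-fold. Of all genes tested, 0.831% fell by that much. Pdk1, the family member usually named as the HIF1 target, differed by -0.05 (SE 0.06, adjusted p = 0.566) on the log2 scale. Pfkfb3, which makes the activator of phosphofructokinase fructose 2,6-bisphosphate, had 25.8 and 24.0 CPM with PM2.5 and 26.5 and 28.9 CPM untreated, a difference of -0.15 (SE 0.07, adjusted p = 0.122). Pfkfb4, its relative, differed by 0.23 with an SE of 0.13 and did not pass.

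In glycogen handling, Gys1, the muscle-type glycogen synthase, had 469 and 427 CPM in EpH4 with PM2.5 and 557 and 608 CPM in EpH4 untreated. It fell by 0.38 (SE 0.06, adjusted p = 6.41e-04) on the log2 scale with no overlap of the groups. The branching enzyme Gbe1 had overlapping groups and a log2 difference of -0.21 (SE 0.09, adjusted p = 0.122). Pygl, the liver-type glycogen phosphorylase, had no count in either exposed EpH4 library and 1 count in the untreated ones, so no change could be read for it in this line.

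**Figure D1:**
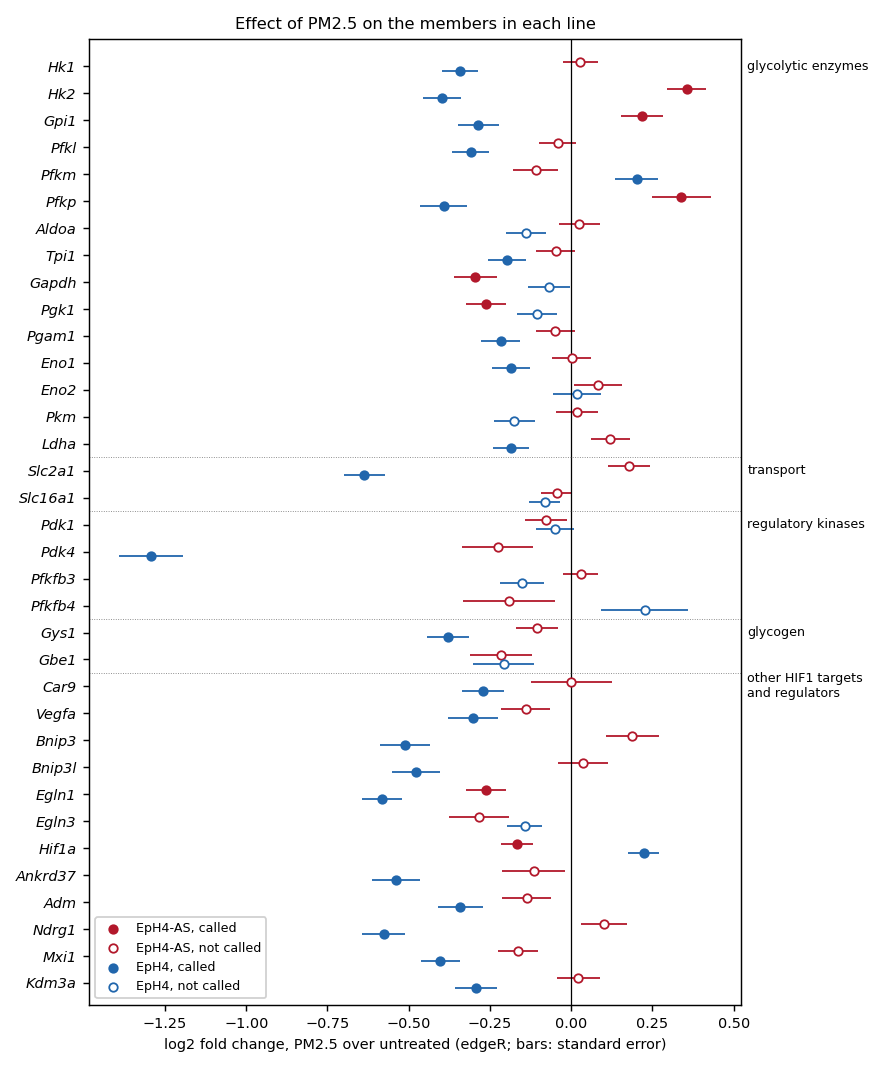
Log2 fold change of each member with PM2.5 over untreated in EpH4-AS (red) and EpH4 (blue), with SE bars from the edgeR fit and filled points for adjusted p under 0.05. Most filled EpH4 points lie left of 0, Pdk4 farthest at -1.29, while Hk2, Gpi1 and Pfkp lie right of 0 in EpH4-AS; Aldoart1, Aldoart2, Pygl, Ldhb and Slc16a3, which had few or no reads in at least 1 line, are not drawn.

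Of the 12 other HIF1 targets and regulators, 10 fell and 1 rose in EpH4 with PM2.5. Egln1, the main oxygen-sensing prolyl hydroxylase (chr8:125635326-125676063), had 379 and 336 CPM with PM2.5 and 519 and 551 CPM untreated. The groups were well apart, at a log2 fold change of -0.58 (SE 0.06, adjusted p = 2.08e-05). Ndrg1, a stress-induced gene widely used as a hypoxia marker (chr15:66801167-66841489), had 1818 and 1621 CPM with PM2.5 and 2452 and 2679 CPM untreated. It fell by 0.58 (SE 0.07, adjusted p = 3.61e-05) on the log2 scale. Bnip3, a receptor that directs mitochondria into autophagy (chr7:138492565-138511248), had 866 and 726 CPM with PM2.5 and 1072 and 1199 CPM untreated, a log2 fold change of -0.51 (SE 0.08, adjusted p = 3.23e-04). Its homologue Bnip3l had a log2 fold change of -0.48 (SE 0.07, adjusted p = 3.83e-04), and Ankrd37, an ankyrin repeat protein induced by HIF1, one of -0.54 (SE 0.07, adjusted p = 1.67e-04).

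The other HIF1 targets that fell include secreted and surface proteins. Vegfa, the main angiogenic growth factor (chr17:46327919-46343295), had 951 and 802 CPM in EpH4 with PM2.5 and 1026 and 1134 CPM in EpH4 untreated. Its groups did not overlap, and the log2 fold change was -0.30 (SE 0.08, adjusted p = 0.00926). Car9, a carbonic anhydrase that exports acid (chr4:43506966-43513729), had 255 and 232 CPM with PM2.5 and 276 and 313 CPM untreated, a log2 fold change of -0.27 (SE 0.06, adjusted p = 0.00665). Also lower were Adm, the vasodilator adrenomedullin, at a log2 fold change of -0.34, the MYC antagonist Mxi1 at -0.40 and the histone demethylase Kdm3a at -0.29. Egln3, the hydroxylase most strongly induced by hypoxia in many cells (chr12:54225767-54250646), had 460.2 and 431 CPM with PM2.5 and 499 and 485 CPM untreated. All exposed values were lower, but the log2 difference of -0.14 (SE 0.05, adjusted p = 0.0607) did not pass. Vegfa and Car9 no longer passed without the second exposed EpH4 library (adjusted p = 0.102 for Vegfa and 0.0684 for Car9) or without the second untreated one (adjusted p = 0.0581 for each).

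Hif1a itself rose while most of its targets in the list fell. At chr12:73948149-73994304, it had 353 and 365 CPM in EpH4 with PM2.5 and 305 and 309.9 CPM in EpH4 untreated. The exposed libraries were both higher, with a log2 fold change of 0.22 (SE 0.05, adjusted p = 0.00332). HIF1 is known to be controlled mostly through the stability of its protein, which was not measured here.

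**Figure D2:**
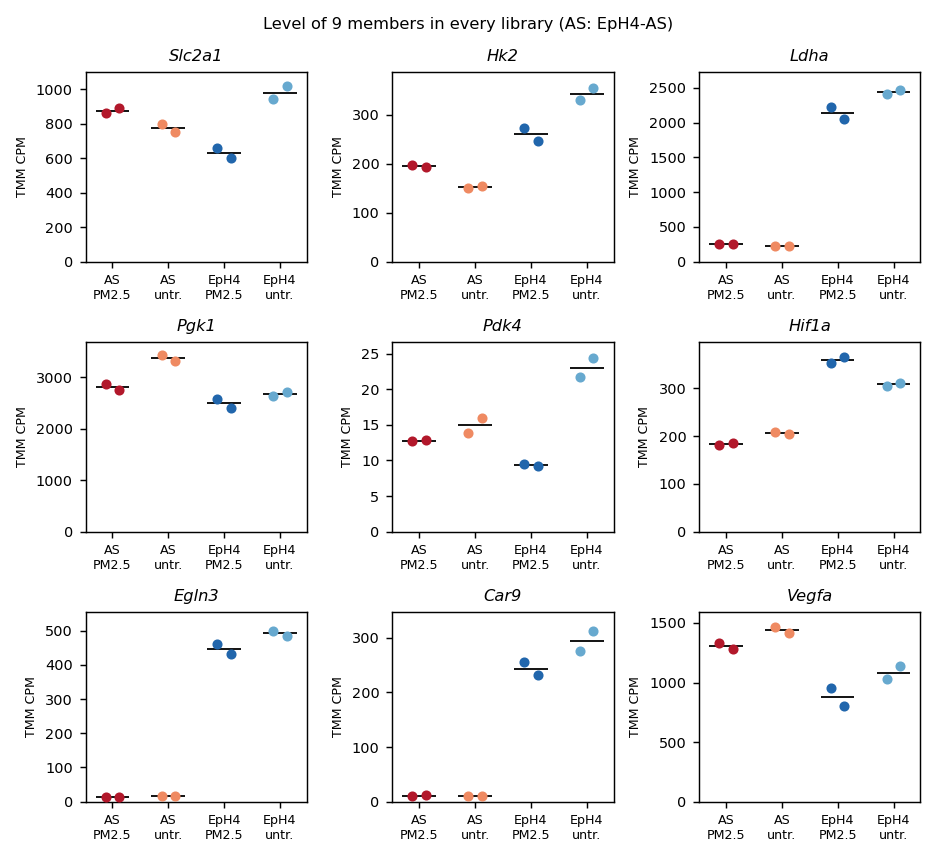
Level of 9 members in each of the 8 libraries, in TMM-scaled CPM on linear axes from 0, with a line at each group's mean. Slc2a1 and Pdk4 are lowest in EpH4 with PM2.5, Hif1a is highest there, and Ldha, Egln3 and Car9 are low in all 4 EpH4-AS libraries.

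Groups did not overlap and were lower with PM2.5 for 28 of the 40 members, against 30% of all genes, and were higher for 4, against 31% of all genes. The share of mitochondrially encoded counts moved with exposure in this line, at 4.63% ± 0.56 with PM2.5 and 2.47% ± 0.36 untreated (SD, n = 2 each). With those genes left out of the fit, 24 members fell and 2 rose. Among the marker lists, the summed level of the 15 epithelial genes was 10.0 and 10.8 CPM with PM2.5, against 4.76 and 4.73 CPM untreated, mostly from Krt14. The 7 leukocyte genes summed to 194 and 225 CPM with PM2.5, against 177 and 175 CPM untreated, nearly all from Cd68. The 10 fibroblast genes summed to 2506 and 2717 CPM with PM2.5, against 2877 and 2463 CPM untreated, which overlap. The 6 adipocyte genes summed to 141 and 145 CPM with PM2.5, against 171 and 166 CPM untreated, nearly all from Lpl. The part of these genes' cells in the member changes was not tested. The count of members called was lowest in an edgeR fit of the 2 EpH4 groups alone, at 17, with 16 lower and 1 higher. That fit called 18.1% of all genes, against 27.2% in the 4-group fit. Among the members that no longer passed in it were Pfkm, Gpi1 (adjusted p = 0.0560), Vegfa (adjusted p = 0.0624) and Ldha (adjusted p = 0.156). Leaving out the second untreated EpH4 library lowered the count as far.

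Reads outside exons gave a second readout of the same genes from the same libraries. It is the difference between the authors' total gene reads and exon counts, and was available for 39 members. What share of it is unspliced RNA was not tested. In EpH4, 6 members fell and 1 rose on this readout, where 2.97% of 12440 genes fell and 6.73% rose. The members' median log2 fold change was -0.24, against 0.07 over all genes. Both readouts shared libraries and scaling, so an agreement in sign is not independent evidence. How many of all genes with fallen exon counts were negative outside exons was not computed. Of the 22 members whose exon counts fell, 21 had a negative value outside exons, and 5 passed the test there. Those were Pfkl at -0.54 (SE 0.15, adjusted p = 0.00659), Pgam1 at -0.42 (SE 0.14, adjusted p = 0.0374), Gys1 at -0.41 (SE 0.14, adjusted p = 0.0421), Egln1 at -0.41 (SE 0.14, adjusted p = 0.0490) and Mxi1 at -0.49 (SE 0.14, adjusted p = 0.0122). Gbe1 also passed there, at -0.47 (SE 0.14, adjusted p = 0.0103). Hif1a was the 1 member that rose on both readouts, at 0.52 (SE 0.15, adjusted p = 0.0139) outside exons. Car9 was the fallen member whose value outside exons was positive, at 0.13 (SE 0.14, adjusted p = 0.670), and Hk2 and Ndrg1 were near 0 there.

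**Figure D3:**
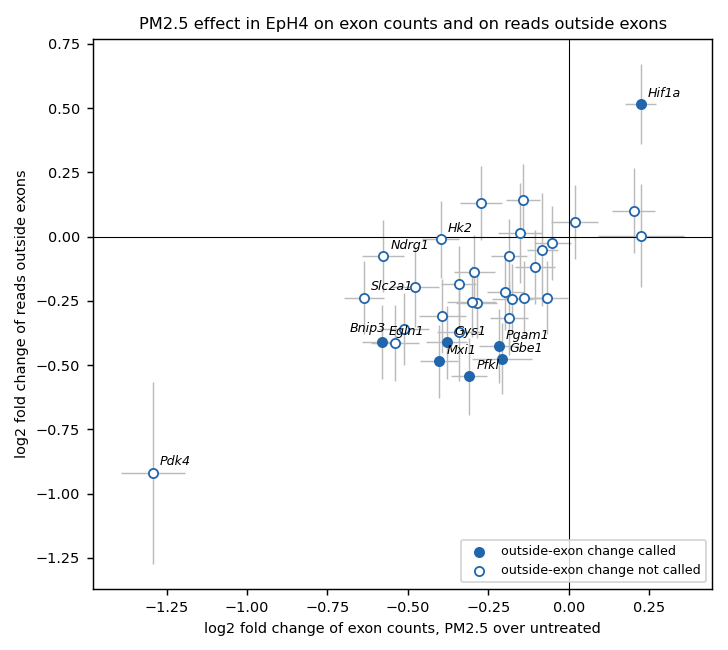
PM2.5 effect in EpH4 on exon counts (horizontal) and on reads outside exons (vertical) for each member, as log2 fold changes with SE bars; filled points passed the test outside exons. Most points lie at the lower left, Pdk4 farthest out, and Hif1a lies in the upper right; Aldoart1 and Pygl are not drawn.

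Other genes of the pathway, from lists chosen with earlier results of these data known, were read in the same comparison. Of 19 further HIF targets tested, 11 fell and 3 rose, with a median log2 fold change of -0.20. Ak4, 1 of the 11, was under 1 CPM in both groups. Among those with the smallest adjusted p were Plod1, a collagen lysyl hydroxylase, at -0.93 (SE 0.07, adjusted p = 1.67e-06), P4ha1, a collagen prolyl hydroxylase, at -0.72 (SE 0.07, adjusted p = 1.91e-05), and Higd1a, a mitochondrial protein, at -0.77 (SE 0.10, adjusted p = 7.87e-05). Of the 11 genes tested for HIF subunits and oxygen sensing, 3 fell and 1 rose. Arnt2, a partner subunit, rose by 0.95 (SE 0.14, adjusted p = 2.73e-04), and Hif1an, the asparaginyl hydroxylase that restrains HIF activity, fell by 0.26 (SE 0.06, adjusted p = 0.00589). Of 16 citric acid cycle genes, 2 rose, Cs at 0.26 and Ogdh at 0.23, and none fell. Of 13 genes of pyruvate entry, 1 rose and 2 fell. Of 8 other glycogen genes, 2 rose and 2 fell, and of 6 other glycolytic isoenzymes, 2 rose. Neither of the 2 gluconeogenesis genes tested passed.

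In EpH4-AS, PM2.5 moved fewer of the members and in mixed directions. Of the 40 members, 5 fell, 3 rose, and 32 did not pass, while 4.75% of all genes fell and 6.39% rose. The median log2 fold change was -0.04 over the members, against 0.00245 over all genes. Hk2 had 198 and 194 CPM in EpH4-AS with PM2.5 and 151 and 155 CPM in EpH4-AS untreated, and rose by 0.36 (SE 0.06, adjusted p = 0.00198) on the log2 scale. Pfkp had 47.3 and 50.4 CPM with PM2.5 and 37.4 and 39.9 CPM untreated, a log2 fold change of 0.34 (SE 0.09, adjusted p = 0.0285). Gpi1 had 756 and 741 CPM with PM2.5 and 640.1 and 647 CPM untreated, a log2 fold change of 0.22 (SE 0.06, adjusted p = 0.0441). In all 3 genes both exposed libraries were above both untreated ones.

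Marker sums also moved with exposure in EpH4-AS. The fibroblast genes summed to 424 and 429 CPM with PM2.5, against 599 and 599.8 CPM untreated, and the adipocyte genes to 1161 and 1153 CPM with PM2.5, against 1422 and 1382 CPM untreated. The leukocyte genes summed to 40.8 and 41.9 CPM with PM2.5, against 39.9 and 38.7 CPM untreated, while the epithelial sums overlapped. The mitochondrial share was 0.270% and 0.302% with PM2.5, against 0.219% and 0.246% untreated. The part of these values in the member changes was not tested.

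Those that fell were enzymes of the payoff phase of glycolysis, of glycogen breakdown and genes of oxygen sensing. Pgk1 had 2868 and 2760.2 CPM in EpH4-AS with PM2.5 and 3426 and 3324 CPM in EpH4-AS untreated, a log2 fold change of -0.26 (SE 0.06, adjusted p = 0.0147). Pygl had 257 and 257 CPM with PM2.5 and 318 and 311 CPM untreated, at -0.29 (SE 0.05, adjusted p = 0.00329). Hif1a had 181 and 185 CPM with PM2.5 and 208 and 203 CPM untreated, at -0.17 (SE 0.05, adjusted p = 0.0454). None of these groups overlapped. Gapdh and Egln1 also fell, with log2 fold changes of -0.30 (SE 0.07, adjusted p = 0.0117) for Gapdh and -0.26 (SE 0.06, adjusted p = 0.0147) for Egln1. Groups lay apart and lower with PM2.5 for 19 of the 40 members, against 28% of all genes, and higher for 10, against 29.6%.

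Several members that fell in EpH4 gave no call in EpH4-AS. Slc2a1 had 861 and 891 CPM in EpH4-AS with PM2.5 and 799 and 749.9 CPM in EpH4-AS untreated, a log2 difference of 0.18 (SE 0.06, adjusted p = 0.0895). Pdk4 had 12.7 and 12.8 CPM with PM2.5 and 13.9 and 16.0 CPM untreated, at -0.23 (SE 0.11, adjusted p = 0.221). Ndrg1 had 192 and 192 CPM with PM2.5 and 175 and 183 CPM untreated, at 0.10 (SE 0.07, adjusted p = 0.414). Each of these pairs of groups lay apart without passing the test, Slc2a1 and Ndrg1 higher with PM2.5 and Pdk4 lower. Bnip3 differed by 0.19, Ldha by 0.12, Vegfa by -0.14, Pfkl by -0.04, Pfkfb3 by 0.03 and Car9 by less than 0.01, none of which passed. Egln3, at 13.2 and 13.4 CPM with PM2.5 and 15.2 and 17.3 CPM untreated, differed by -0.28 (SE 0.09, adjusted p = 0.0660). On reads outside exons no member of 39 passed, where 0.137% of all genes fell and 0.442% rose. Among the further HIF targets, Ddit4, an inhibitor of mTOR signalling, rose by 0.61 (SE 0.05, adjusted p = 8.20e-06). It was 1 of 2 that rose of the 19, and none fell.

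The calls in EpH4-AS rest on few libraries. Without the first untreated EpH4-AS library 0 members passed in edgeR, with 10 at an unadjusted p under 0.05. Without the second untreated library 1 passed, and without the first or the second exposed library 2 passed each. The share of all genes called fell too without any 1 EpH4-AS library, so the drop is not particular to the members. With all libraries, the 4-group fit called 8 members and 11.1% of all genes. DESeq2 called 8 members and 4.97% of all genes with a count. A fit of the 2 EpH4-AS groups alone called 17 members and 21.3% of all genes.

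The design asks whether the exposure effect depends on the line, which the interaction term tests directly. For 16 of the 40 members the effects differed, against 14.1% of all genes, and 14 of the 16 had the more positive effect in EpH4-AS. Of all genes, 7.6% differed in that direction and 6.49% in the other. The difference in log2 fold change, EpH4-AS minus EpH4, was 0.81 (SE 0.09, adjusted p = 8.55e-05) for Slc2a1, 0.75 (SE 0.08, adjusted p = 8.94e-05) for Hk2 and 1.07 (SE 0.15, adjusted p = 4.12e-04) for Pdk4. It was 0.68 (SE 0.10, adjusted p = 4.69e-04) for Ndrg1, 0.73 (SE 0.12, adjusted p = 0.00101) for Pfkp, 0.70 (SE 0.11, adjusted p = 0.00108) for Bnip3 and 0.50 (SE 0.09, adjusted p = 0.00234) for Gpi1. Hif1a, at -0.39 (SE 0.07, adjusted p = 0.00204), and Pfkm, at -0.31 (SE 0.10, adjusted p = 0.0459), had the more negative effect in EpH4-AS. Without 1 library the count lay between 10 and 19, lowest without either of the untreated EpH4-AS libraries.

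Hk2, Gpi1, Pfkp and Hif1a passed in both lines with opposite signs, a pattern that 1.58% of all genes showed. Hk2, Gpi1 and Pfkp rose in EpH4-AS and fell in EpH4, while Hif1a fell in EpH4-AS and rose in EpH4. Without the first untreated EpH4-AS library none of the 4 passed in EpH4-AS, with Hk2 at an adjusted p of 0.0541. Leaving out any 1 EpH4-AS library ended the EpH4-AS calls of Gpi1 (adjusted p = 0.167 to 0.262), Pfkp (adjusted p = 0.0692 to 0.223) and Hif1a (adjusted p = 0.190 to 0.359). With all libraries, the Gpi1 call also ended with the size factors of DESeq2 (adjusted p = 0.0588) and with library totals (adjusted p = 0.0619) in edgeR, among other settings. The Hif1a call in EpH4-AS ended in edgeR with a replicate block (adjusted p = 0.0760) and without mitochondrially encoded genes (adjusted p = 0.0664). That of Pfkp ended under limma-trend on RPKM with pseudocounts of 1 (adjusted p = 0.0609) and 0.1 (adjusted p = 0.0561). The EpH4 call of Gpi1 ended in the edgeR fit of the 2 EpH4 groups alone (adjusted p = 0.0560). Egln1 alone of the members passed in both lines with the same sign, lower with PM2.5, as did 2.76% of all genes in either direction.

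Untreated, the lines differed at nearly every member, as they did at most genes. EpH4-AS was lower than EpH4 for 24 of the 40 members and higher for 13, while 45.7% of all genes were lower and 43.6% higher. The median log2 fold change was -0.64 over the members, against -0.05 over all genes. Pygl, Aldoart1 and Aldoart2 passed the filter only through EpH4-AS, in which they were high. Their places among the higher members were therefore fixed by the filter. With PM2.5, 22 members were lower and 13 higher in EpH4-AS, with 45.5% of all genes lower and 43.5% higher, and a median of -0.40. The falls were led by HIF1 targets. Egln3 had 16.2 ± 1.44 CPM in EpH4-AS untreated and 492 ± 10.0 CPM in EpH4 untreated (SD, n = 2 each), 30.3-fold lower at a log2 fold change of -4.92 (SE 0.07, adjusted p = 2.05e-16).

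The other HIF1 targets with large falls were Car9 and Ndrg1. Car9 had 10.8 ± 0.0690 CPM in EpH4-AS untreated and 294 ± 26.3 CPM in EpH4 untreated, a log2 fold change of -4.77 (SE 0.09, adjusted p = 2.14e-15). Ndrg1 had 179 ± 5.64 CPM in EpH4-AS and 2566 ± 160.2 CPM in EpH4, at -3.84 (SE 0.07, adjusted p = 2.54e-15). Bnip3 differed by -2.41, Ankrd37 by -1.38, Bnip3l by -1.29, Adm by -1.05, Mxi1 by -0.92, Hif1a by -0.58 and Kdm3a by -0.53 on the log2 scale, all lower in EpH4-AS and all past the threshold. Vegfa, at 1441 ± 39.5 CPM in EpH4-AS and 1080.3 ± 76.5 CPM in EpH4, was higher by 0.42 (SE 0.08, adjusted p = 1.19e-04), and Egln1 by 0.15 (SE 0.06, adjusted p = 0.0369).

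Among the enzymes the last step differed most. Ldha had 232 ± 2.74 CPM in EpH4-AS untreated and 2436 ± 40.2 CPM in EpH4 untreated, 10.5-fold lower at a log2 fold change of -3.39 (SE 0.06, adjusted p = 1.73e-15). Ldhb was also lower, at 0.542 and 0.190 CPM in EpH4-AS and 3.78 and 3.34 CPM in EpH4. It had only 9 and 3 counts in the EpH4-AS libraries, against 104 and 84 in the EpH4 libraries, and its log2 difference ran from -4.21 to -1.24 over the alternatives. Pfkp differed by -2.94, Tpi1 by -2.26, Eno1 by -1.71, Gpi1 by -1.70, Pgam1 by -1.17, Gapdh by -1.17, Hk2 by -1.16 and Aldoa by -0.55 on the log2 scale. Higher in EpH4-AS were Pfkl at 0.84, Hk1 at 0.70, Pkm at 0.66, Pfkm at 0.42 and Pgk1 at 0.33. All of these passed. Eno2, at -0.01, did not pass.

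Regulators, transport and glycogen genes differed in both directions between the lines. Pfkfb3 had 219 ± 0.884 CPM in EpH4-AS untreated and 27.7 ± 1.76 CPM in EpH4 untreated, 7.92-fold higher at a log2 fold change of 2.98 (SE 0.06, adjusted p = 4.51e-15). Slc16a1 was higher by 0.48 and Pfkfb4 by 0.49, while Gys1 was lower, at -0.66, all as log2 fold changes. Pdk1 was lower too, with 76.1 ± 0.508 CPM in EpH4-AS untreated and 152 ± 1.74 CPM in EpH4 untreated (adjusted p = 6.37e-10). Slc16a3, at -0.87 with an SE of 0.66, and Gbe1, at 0.01, did not pass. Slc2a1 and Pdk4 changed order with exposure. With PM2.5, Slc2a1 was higher in EpH4-AS than in EpH4 at a log2 fold change of 0.47 (SE 0.06, adjusted p = 5.14e-06), and untreated it was lower, at -0.34 (SE 0.06, adjusted p = 1.37e-04). Pdk4 was higher in EpH4-AS with PM2.5, at 0.44 (SE 0.11, adjusted p = 0.00167), and lower untreated, at -0.62 (SE 0.10, adjusted p = 2.98e-05).

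Pygl, the glycogen phosphorylase, had more than 1 count in EpH4-AS libraries only. It had 5292 and 4920 counts in the EpH4-AS untreated libraries and 1 and 0 counts in the EpH4 untreated libraries. With PM2.5 it had 4400 and 4731 counts in EpH4-AS, and EpH4 had no count. Pygl passed the filter on low counts only through EpH4-AS, in which it was high, so no fold is given for it. Of 8 other glycogen genes, 4 were higher and 4 lower in untreated EpH4-AS. Ppp1r3b, a subunit that brings phosphatase to glycogen and 1 of the 4 higher, had no count in untreated EpH4 and 17.9 ± 0.490 CPM in untreated EpH4-AS. It too passed the filter only through EpH4-AS.

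Aldoart1 and Aldoart2 are intronless copies of Aldoa, and their counts are uncertain. Untreated, Aldoart1 had 161 and 163 CPM in EpH4-AS and none in EpH4, and Aldoart2 had 174 and 164 CPM in EpH4-AS and none in EpH4. Both passed the filter only through EpH4-AS, in which they were high, so no fold is given for them. In GENCODE M21 (GRCm38), their sequences matched the coding sequence of Aldoa at 94.2% and 91.6% of its bases. Of the 75-base windows of the Aldoa coding sequence, 1.86% occurred unchanged in Aldoart1 and 0 in Aldoart2. Together the copies took about the same share of the 3 genes' counts in every EpH4-AS library. Aldoart1 made up 5.54% to 6.28% and Aldoart2 5.90% to 6.36% there, while in EpH4 libraries Aldoa made up at least 99.999% of the counts. Whether these reads came from the copies or from Aldoa was not tested.

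**Figure D4:**
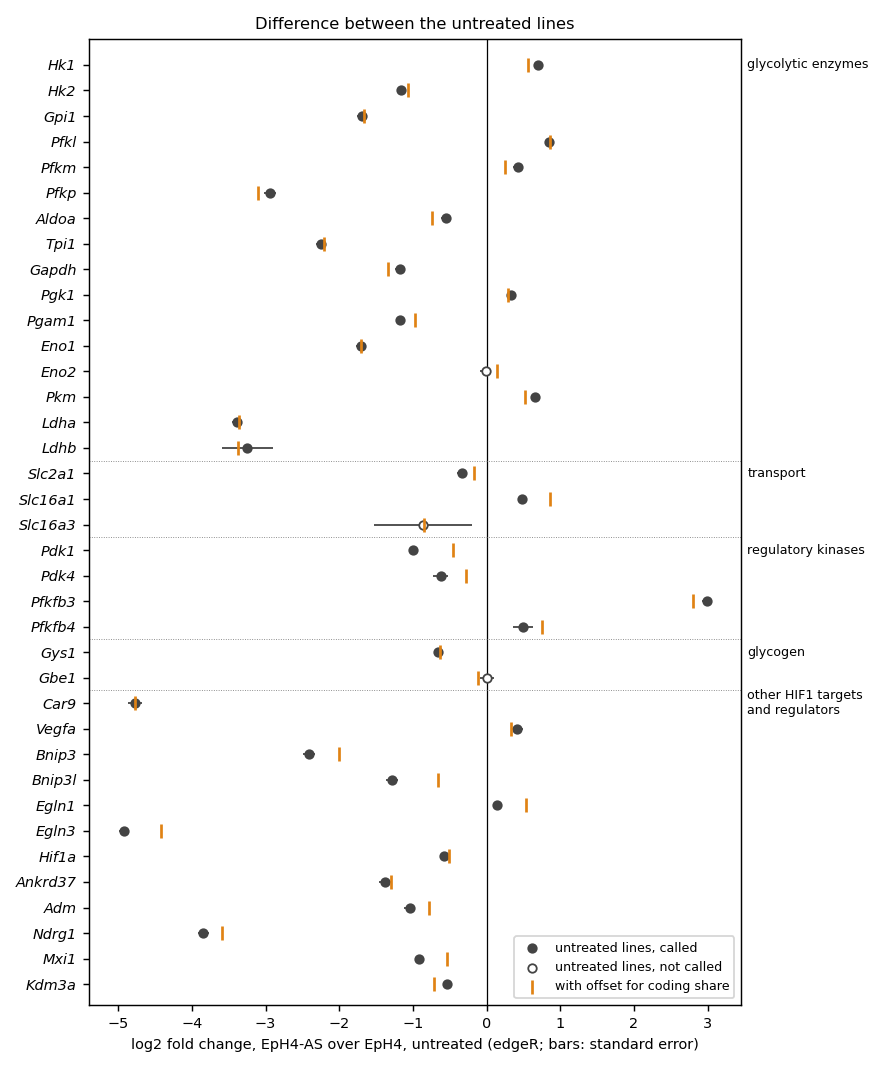
Log2 fold change of each member in EpH4-AS over EpH4, untreated, with SE bars; filled points passed the test, and orange ticks give the value after an offset for each gene's coding share. Egln3, Car9 and Ndrg1 lie farthest left on both scales, followed by Ldha and Ldhb, and Pfkfb3 lies farthest right. Aldoart1, Aldoart2 and Pygl, with no or 1 count in EpH4, are not drawn.

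Values of the libraries moved with the line contrast. Untreated, the fibroblast genes summed to 599 and 599.8 CPM in EpH4-AS, against 2877 and 2463 CPM in EpH4. Most of this came from Dcn in EpH4-AS and from Dcn and Col1a2 in EpH4. Col3a1 and Lum of the same list went the other way. Col3a1 had means of 45.1 CPM in EpH4-AS and 0.749 CPM in EpH4, and Lum of 3.21 and 0.589 CPM. The adipocyte genes summed to 1422 and 1382 CPM in EpH4-AS, against 171 and 166 CPM in EpH4, and the leukocyte genes to 39.9 and 38.7 CPM in EpH4-AS, against 177 and 175 CPM in EpH4. Over all genes tested with a known transcript structure, the median log2 fold change of EpH4-AS over EpH4 untreated was -0.49 in the fifth of genes with the smallest coding share of the transcript. It was -0.07, 0.12, 0.24 and 0.33 in the following groups of genes, by rising coding share. Some members lie at the low end, such as Bnip3l with 20.2% of its transcript coding and Pdk1 with 25.1%. An offset chosen after seeing the data reduced the trend with coding share but did not remove it. With it, the medians of these groups of genes were 0.03, 0.11, 0.15, 0.16 and 0.18, by rising coding share. After the offset, Bnip3l differed by -0.66 and Pdk1 by -0.46, while Car9, Egln3, Ndrg1 and Ldha differed by -4.78, -4.42, -3.60 and -3.36. The offset also moved Slc2a1 to -0.17, Pdk4 to -0.28, Mxi1 to -0.54, Pfkm to 0.24, Egln1 to 0.53, Slc16a1 to 0.86 and Pfkfb4 to 0.75, each by more than 1.5 times. The 13 higher and 24 lower calls had the same numbers under that offset. The marker sums, the low outside-exon share, the low mitochondrial share and this trend stand together in EpH4-AS, and their part in the line differences was not tested.

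Compared per length, as the authors' RPKM (reads per kilobase of exon, scaled to the library), the glycolytic steps differed in order between the lines. Summing isoenzymes but not the Aldoa copies, the highest steps in untreated EpH4-AS were phosphoglycerate kinase at 1715 ± 20 RPKM and pyruvate kinase at 1648 ± 2.3 RPKM (SD, n = 2). The lowest step there was lactate dehydrogenase at 83.9 ± 1.7 RPKM. In untreated EpH4 the highest were aldolase at 1330.3 ± 38 RPKM and phosphoglycerate mutase at 1290.4 ± 18 RPKM, whose difference is about the spread of 1 of them, and the lowest was hexokinase at 96.9 ± 1.6 RPKM. Lactate dehydrogenase in untreated EpH4 was at 769.7 ± 0.25 RPKM. In untreated EpH4-AS, glucose-6-phosphate isomerase at 208.6 ± 3.6 RPKM and phosphofructokinase at 207 ± 3.8 RPKM did not differ beyond their spread.

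With PM2.5, the summed RPKM was lower than untreated at all 11 steps in EpH4. The change was steepest at hexokinase, with 75.2 ± 4.4 RPKM with PM2.5 and 96.9 ± 1.6 RPKM untreated. It was smallest at glyceraldehyde-3-phosphate dehydrogenase, with 791 ± 7.9 RPKM with PM2.5 and 827 ± 31 RPKM untreated. In EpH4-AS, hexokinase had 123 ± 1.3 RPKM with PM2.5 and 117 ± 0.60 RPKM untreated, and phosphoglycerate kinase 1400 ± 30 RPKM with PM2.5 and 1715 ± 20 RPKM untreated.

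Isoenzyme use also differed. Hk2 made up 25.2% and 24.5% of hexokinase RPKM in EpH4-AS with PM2.5, 20.5% and 21.2% in EpH4-AS untreated, 48.0% and 47.9% in EpH4 with PM2.5, and 48.2% and 49.6% in EpH4 untreated. The Hk2 share was higher with PM2.5 in EpH4-AS and, in EpH4, a little lower in both exposed libraries. Pfkp made up 3.70% and 3.90% of phosphofructokinase RPKM in EpH4-AS untreated and 33.7% and 35.5% in EpH4 untreated, while Pfkl made up 88.1% and 88.3% in EpH4-AS and 58.6% and 58.1% in EpH4. Eno2 made up 42.0% and 38.3% of enolase RPKM in EpH4-AS untreated and 16.3% and 17.9% in EpH4 untreated. In every group Ldha made up over 99% of lactate dehydrogenase RPKM.

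**Figure D5:**
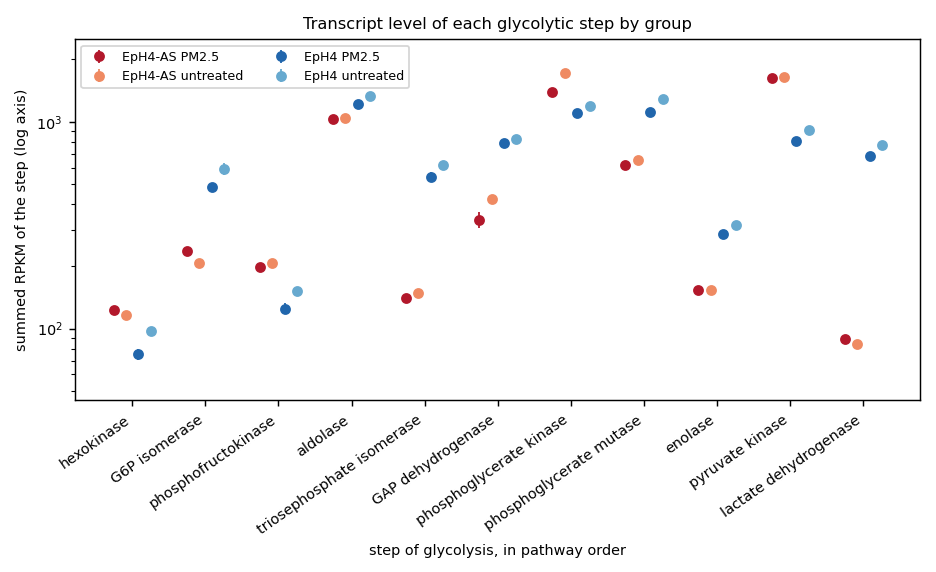
Summed RPKM of the isoenzymes of each glycolytic step, in pathway order, for the 4 groups on a log axis, with the mean and SD of 2 libraries. In EpH4 every PM2.5 point lies below its untreated point, and lactate dehydrogenase is the step with the widest gap between the lines.

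Around glycolysis, other lists differed between the untreated lines in other directions. Of 16 citric acid cycle genes, 14 were higher and 2 lower in EpH4-AS, with a median log2 fold change of 1.13. Sdha, a succinate dehydrogenase subunit, was higher by 1.91, the isocitrate dehydrogenase subunit Idh3a by 2.05, and the fumarase Fh1 by 1.83. Of 11 genes for HIF subunits and oxygen sensing, 3 were higher and 8 lower, among the lower ones Vhl, which recognises hydroxylated HIF alpha, at -1.61 (SE 0.10, adjusted p = 7.89e-10). Epas1, the HIF2 alpha subunit, had 6.46 ± 1.05 CPM in EpH4-AS and 0.0727 ± 0.103 CPM in EpH4. Of 19 further HIF targets, 5 were higher and 12 lower, with Ero1a, an oxidase of disulfide formation, at -3.35. Ak4, a mitochondrial adenylate kinase, had 78.6 ± 1.21 CPM in EpH4-AS and 0.268 ± 0.0707 CPM in EpH4. Epas1 and Ak4, counted among the higher genes, passed the filter on low counts only through EpH4-AS, in which they were high, so no fold is given for them. Of 13 genes of pyruvate entry, 6 were higher and 5 lower.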

How the data were processed

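Polyadenylated RNA of 8 spheroid libraries was sequenced by the authors after a stranded library kit, per the labels' protocols. Raw read counts per gene were deposited by the authors in whole numbers, on GRCm39 per the submitters' processing notes. The authors also deposited RPKM values and total gene reads per library, per the file headers. The aligner, the counter and the strand setting were not given in the sources used here, so antisense partners and near copies may share reads.

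Counts were fitted in R 4.3.3 with edgeR 4.0.16 (TMM, filterByExpr, 13716 of 25413 genes) by quasi-likelihood over the 4 groups, leaving 4 residual degrees of freedom. The 5 contrasts were adjusted by Benjamini-Hochberg over all genes tested, two-sided, at 0.05. The SE of a log2 fold change was taken from its F statistic. Scripts were tested on simulated data. Alternatives used DESeq2 1.42.0 and limma 3.58.1 with pseudocounts of 1 and 0.1 on RPKM. Groups came from the labels. The replicate numbers were not used to pair libraries.

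The members and lists were chosen with earlier results of these data known. Levels by library or group are given in at least 1 comparison for 19 members, of which 9 were always named. The rest were past 2-fold with PM2.5, opposite in the lines, among the 8 smallest adjusted p of the interaction, or among the 5 largest rises or falls between untreated lines. Other members given so were chosen after their values were seen. Promoter sequences are from RefSeq on GRCm38.p6, another build than that of the counts. A further HIF target is counted in its list and not reported here by name.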

Additional observations from a re-analysis of the deposited data

Results flagged for a closer look

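For 16 members the PM2.5 effect differed between the lines in the interaction test of the edgeR fit, and these differences, EpH4-AS minus EpH4 in log2 fold change, are given here. The glucose transporter Slc2a1 differed by 0.81. Among glycolytic enzymes, Hk2 differed by 0.75, Pfkp by 0.73, Gpi1 by 0.50, Hk1 by 0.37, Ldha by 0.31, Pfkl by 0.27 and Pfkm by -0.31. The pyruvate dehydrogenase kinase Pdk4 differed by 1.07. Among the other HIF1 targets and regulators, Bnip3 differed by 0.70, Ndrg1 by 0.68, Bnip3l by 0.51, Ankrd37 by 0.42, Egln1 by 0.32, Kdm3a by 0.32 and Hif1a by -0.39. The Pfkl difference no longer passed in edgeR with library totals (adjusted p = 0.0634), a replicate block (0.0629) or the coding-share offset (0.0526). It did not pass under limma-trend either (0.0578 and 0.0650). The calls of Ldha and Pfkl also ended without any 1 EpH4-AS library, where Ldha differed by 0.30 to 0.34 and Pfkl by 0.25 to 0.32. Some of the calls of Hk1, Pfkm, Bnip3l, Egln1, Ankrd37 and Kdm3a ended as well without 1 untreated EpH4-AS library. All groups held 2 libraries, so no single library was compared with the rest of its group.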

How the results depend on the processing

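Counts of members called changed by more than 1.5 times in few settings. The fit of the 2 EpH4-AS groups alone called 17 members for PM2.5, against 8 in the 4-group fit. Of all genes, it called 21.3%, against 11.1% in the 4-group fit. The share of all genes called also moved with the library left out. With 1 library left out at a time, the count was 17 to 26 for PM2.5 in EpH4, 0 to 10 for PM2.5 in EpH4-AS, 36 to 38 for the untreated lines, 34 to 35 for the lines with PM2.5, and 10 to 19 for the interaction. Among 1964 values of named members under an alternative, 1877 stayed on their side of the threshold, 28 of them with a change of sign where neither value passed, 61 no longer passed, 25 newly passed and 1 reversed. The reversal was Pygl in the interaction, at -0.31 under limma-trend on log2(RPKM + 1), where EpH4 had no or 1 count; the cause was not tested. Same-numbered libraries did not deviate together, with correlations of deviations from -0.10 to 0.06, so the numbers were not taken as pairs. With the replicate block the counts were 24 for PM2.5 in EpH4, 6 for PM2.5 in EpH4-AS, 36 for the untreated lines, 35 for the lines with PM2.5 and 15 for the interaction. With the pairing crossed in EpH4 they were 27, 8, 37, 35 and 18. The crossed pairing, the fits without mitochondrial genes, with the aldolase copies summed and with the coding-share offset, and the reads outside exons were chosen after seeing the data. Under limma-trend on log2(RPKM + 0.1) the median over all genes for the untreated lines was 0.14, against -0.05 with edgeR, and the members' median was -0.40, against -0.64. Under the coding-share offset the all-gene median was 0.13, and Pgk1 was no longer called between the lines with PM2.5. With 2 libraries a group, small changes may go undetected.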
